A study of Mus musculus with 16 samples.

Results

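Spry1, Spry2, Spry4, Spred1, Spred2 and Dusp6 encode inhibitors of receptor tyrosine kinase signalling, and were followed here through the growth of the mouse oocyte. The 6 genes were taken by name from 25965 genes in a table of RPKM, in which read counts are divided by exon length and library size, and all 6 have a row in it. The group was set up because Spry4 had the second steepest rise among 10518 tested genes, so the rise of Spry4 is given as a description and carries no test. The other 5 genes belong to it as relatives or partners of Spry4 and not for their own values. The gene just above Spry4 in that order was Oog3, with a difference of 7.39 on the scale of log2(RPKM + 0.1) between 10–30 and 60–65 μm oocytes, Spry4 had 5.30, and 4930588N13Rik just below had 5.17.

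All oocytes were wild-type and came from mice of the C57BL/6 background (C57BL/6Babr in the study's methods), with no treatment. RNA-seq libraries in duplicate, A and B, came from oocytes of 10–30 μm (mice of postnatal days 5 to 7), 40–45 μm (days 7 to 12), 50–55 μm (days 9 to 14) and 60–65 μm (days 13 to 16), and 1 further RNA column came from germinal vesicle (GV) oocytes of day 20, which are fully grown and arrested before meiosis resumes. DNA methylation was measured in duplicate by RRBS, which reads the ends of MspI fragments in CpG-rich sequence, in the 3 larger size classes, and by 1 PBAT library without a replicate, which reads the whole genome, in the largest. Each library was a pool of oocytes picked by hand, so size and age of the donor mice rose together and cannot be told apart, and nothing in the labels says whether A and B came from separate animals. With 2 libraries a class, p-values measure the spread between these libraries only.

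Between 99369454 and 198298126 counted reads stood behind each RNA column. Markers of the oocyte were at high levels throughout, the 12 listed ones summing to between 2929 and 3896 RPKM in the libraries of growing oocytes. The 16 listed markers of granulosa cells, the somatic cells around the oocyte, summed to 13.5 and 14.9 RPKM at 10–30 μm and to 27.0 and 24.3 at 60–65 μm, and 11 of them stayed under 0.5 RPKM in all 8 libraries. In these 8 libraries Foxl2, which defines granulosa cells, did not exceed 0.0642 RPKM, and Amh and Fshr did not exceed 0.281 and 0.238, with Fshr at 0.286 in GV oocytes. All 5 granulosa markers that were tested rose from 10–30 to 60–65 μm, where 32.4% of all tested genes were called higher. Among them were Esr2 (oestrogen receptor beta, log2 difference of 2.78), Cyp19a1 (aromatase, 2.26) and Nr5a2 (an orphan nuclear receptor, 1.61). Cyp19a1 reached 0.5 RPKM only from 50–55 μm on, and Inha, another of the 5, only in 50–55A and at 60–65 μm. Both thus entered the test, which took genes of at least 0.5 RPKM in 2 of 8 libraries, through the classes where they were high. The count of 5 therefore partly reflects this filter. Markers of other somatic cells summed to between 2.998 and 7.22 RPKM over 14 genes in the same libraries, with Pecam1 rising by 2.82 and the collagen genes Col1a1 and Col1a2 at differences of -1.81 and -1.30. Col1a2 reached 0.5 RPKM only at 10–30 μm (0.818 and 0.538), so it entered the test through the class where it was high. The part of all these marker genes in the results below was not tested.

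Receptor tyrosine kinases such as KIT, which the oocyte carries and whose ligand comes from granulosa cells, activate RAS, which in turn activates the kinases RAF, MEK and ERK. Sprouty and SPRED proteins act on this chain between the receptor and RAF, and DUSP6 removes phosphate from ERK itself. In many cell types ERK signalling induces the transcription of these genes, so that they are known as its negative feedback.

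The sequences just before the gene starts were found for 5 of the 6 genes, not for Spry4. Each of these held more CpG dinucleotides, the positions at which methylation was measured, than the median promoter. The 4 genes shown are the pair above 1 RPKM in every library, Spry1 and Spred1, and the pair close to the limit of detection, Spry2 and Dusp6. Each line gives the 250 bases before the start annotated in RefSeq on GRCm38.p6, 5′ to 3′ on the strand of the gene, with CpGs in capitals. The window of Spred1 ends at 117121070, ahead of the start at 117121374 that is used for methylation below. The windows are chr3:37639697-37639946 (plus strand) for Spry1, chr2:117120821-117121070 (plus) for Spred1, chr14:105896820-105897069 (minus) for Spry2 and chr10:99262981-99263230 (plus) for Dusp6.
Spry1: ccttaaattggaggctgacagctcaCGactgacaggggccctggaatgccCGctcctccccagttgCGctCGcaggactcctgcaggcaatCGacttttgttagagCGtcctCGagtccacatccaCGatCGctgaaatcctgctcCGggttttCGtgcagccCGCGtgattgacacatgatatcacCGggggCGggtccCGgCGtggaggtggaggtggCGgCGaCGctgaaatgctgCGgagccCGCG
Spred1: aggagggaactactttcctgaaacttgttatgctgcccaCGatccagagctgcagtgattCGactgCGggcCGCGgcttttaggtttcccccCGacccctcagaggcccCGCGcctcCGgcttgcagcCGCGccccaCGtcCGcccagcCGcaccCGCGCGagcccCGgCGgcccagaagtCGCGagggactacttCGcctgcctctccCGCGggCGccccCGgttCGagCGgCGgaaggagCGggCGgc
Spry2: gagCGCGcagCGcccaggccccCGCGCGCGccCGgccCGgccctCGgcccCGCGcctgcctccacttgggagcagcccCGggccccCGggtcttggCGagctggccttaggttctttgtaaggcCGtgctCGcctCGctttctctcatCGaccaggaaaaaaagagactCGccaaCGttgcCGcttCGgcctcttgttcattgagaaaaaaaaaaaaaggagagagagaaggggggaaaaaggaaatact
Dusp6: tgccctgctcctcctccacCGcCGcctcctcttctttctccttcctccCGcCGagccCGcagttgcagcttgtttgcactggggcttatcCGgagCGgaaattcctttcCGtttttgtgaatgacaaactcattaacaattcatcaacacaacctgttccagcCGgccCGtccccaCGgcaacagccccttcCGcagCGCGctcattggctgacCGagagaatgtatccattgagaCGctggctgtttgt

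These windows held 23 CpGs for Spry1, 31 for Spred1, 23 for Spry2 and 16 for Dusp6, against a median of 6 over 32851 RefSeq promoters, and 12 for Spred2. The share of promoters with fewer CpGs was 94.8% for Spred1, 86.7% for Spry1 and for Spry2, 74.6% for Dusp6 and 66.5% for Spred2. The window of Spred2 ran to 19924441, past its start at 19924375 that is used for methylation below. RefSeq promoters were matched for 5 of the 6 genes, and Spry4 had no entry. Of 5 motifs searched on both strands in the 250 bases, only the GC box GGGCGG was found, in Spry1, Spred1 and Spred2, and it occurs in 32.7% of all promoters. The ETS motif CCGGAAG, which occurs in 6.91% of promoters, the AP-1 motif TGACTCA (4.46%), the CRE motif TGACGTCA (1.55%) and the TATA motif TATAAA (12.4%) were in none of the 5 windows. In the printed window of Spry1, 38 of 3530 RRBS calls from all 6 libraries together were methylated, in that of Spred1 13 of 3374, in that of Spry2 5 of 1154 and in that of Dusp6 5 of 1186.

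Spry4, a Sprouty protein that restrains signalling from growth factor receptors, went from the third highest of the 6 genes in the smallest oocytes to the highest from 50–55 μm onwards. Its RPKM were 0.259 and 0.448 in libraries A and B at 10–30 μm, 2.65 and 2.46 at 40–45 μm, 8.25 and 8.81 at 50–55 μm, 20.1 and 14.9 at 60–65 μm, and 29.0 in the GV column. Both libraries of each class lay above both libraries of the class before, and the GV value lay above all 8. Class means were 0.354 ± 0.134, 2.56 ± 0.137, 8.53 ± 0.394 and 17.5 ± 3.74 RPKM (SD, n = 2), so that the mean at 60–65 μm was 49.5 times the mean at 10–30 μm. The steps between classes were 7.23-fold, 3.34-fold and 2.05-fold, and on the log2(RPKM + 0.1) scale 2.69, 1.66 and 0.95. The low level at 10–30 μm rested on 118 and 327 reads, and the 60–65 μm level on 9713 and 12324 reads. RPKM give shares of a library's RNA, so a larger share, more RNA per oocyte and a changed mixture of cells in the pool cannot be told apart. Among all genes in the table, Spry4 was above 59.3% at 10–30 μm and above 96.4% at 60–65 μm.

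**Figure D1:**
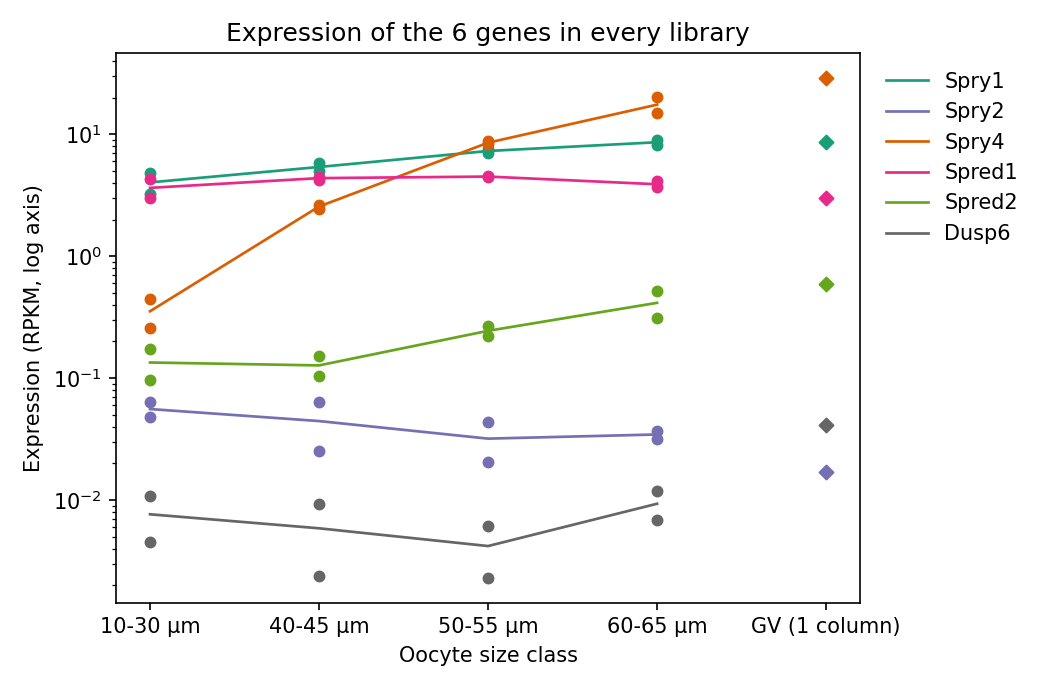
RPKM of the 6 genes on a log axis in each RNA library (circles), with lines through the class means of 2 libraries and diamonds for the single GV column. Spry4 goes from 0.259 and 0.448 RPKM at 10–30 μm to 20.1 and 14.9 at 60–65 μm and passes Spry1 and Spred1, while Spry2 and Dusp6 stay under 0.1.

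Spry1, the Sprouty gene with the highest level at the start of growth, rose over the whole of growth, by 2.13-fold in the class means. Its RPKM were 3.23 and 4.83 at 10–30 μm, 4.97 and 5.81 at 40–45 μm, 6.97 and 7.62 at 50–55 μm, 8.17 and 9.04 at 60–65 μm and 8.62 in the GV column. Neighbouring classes did not overlap, although the higher library at 10–30 μm lay just under the lower one at 40–45 μm. From 10–30 to 60–65 μm the difference was 1.12 on the log2(RPKM + 0.1) scale (SE 0.16, adjusted p = 0.000463, limma with Benjamini-Hochberg adjustment), and 32.4% of tested genes were called higher in this comparison. For the first step the difference was 0.56 (SE 0.16, adjusted p = 0.0389, limma), where 16.1% of genes were called higher. This call of the first step was lost on leaving out any 1 of 7 libraries, all but 10–30B (adjusted p between 0.0580 and 0.158, limma). It was also lost without scaling of the libraries (0.43, adjusted p = 0.112), which moved the median over all genes in this step by 0.12, from 0.05 to -0.07, and the calls from 1694 genes higher and 825 lower to 1088 higher and 1521 lower. Relative to that median, Spry1 was 0.51 higher with and without scaling. The next steps of 0.39 and 0.18 did not pass (adjusted p = 0.156 and 0.669, limma, the first of them 0.0456 and 0.0455 without 10–30A or 10–30B), in comparisons in which 5.18% and 0% of genes were called higher. A transcript annotated as antisense, Gm42922, overlaps the start of Spry1. The libraries were strand-specific by the study's methods, but whether the RPKM counted reads by strand is not stated. Reads of the pair therefore cannot be told apart there from the RPKM.

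Spred1, which binds neurofibromin and brings it to RAS at the membrane, showed no change past the threshold. Its RPKM were 2.99 and 4.28 at 10–30 μm, 4.23 and 4.51 at 40–45 μm, 4.45 and 4.55 at 50–55 μm, 3.68 and 4.10 at 60–65 μm and 2.98 in the GV column. The libraries of the smallest and of the largest growing oocytes overlapped. Over the whole of growth the log2 difference was 0.13 (SE 0.14, adjusted p = 0.431, limma), and none of the 3 steps passed, the first being closest with 0.40 (SE 0.14, adjusted p = 0.0751, limma). Without library 10–30B, the call was made both for the whole of growth (0.35, adjusted p = 0.0269, limma) and for the first step (0.62, adjusted p = 0.00815), and without 10–30A the difference over growth was -0.08. At 10–30 μm Spred1 and Spry1 overlapped in level, whereas in each later class both Spry1 libraries were above both Spred1 libraries.

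Spred2, a SPRED protein of the same mode of action, was present at a low level that was highest in the largest oocytes. Its RPKM were 0.0959 and 0.173 at 10–30 μm, 0.104 and 0.151 at 40–45 μm, 0.223 and 0.266 at 50–55 μm, 0.517 and 0.312 at 60–65 μm and 0.590 in the GV column. The first 2 classes overlapped and both libraries at 50–55 μm lay above them, as did both at 60–65 μm above those at 50–55 μm. Spred2 did not reach the filter of 0.5 RPKM in 2 libraries and so was not among the genes tested in the first place. With no filter on low values the difference over growth was 1.13 on the log2(RPKM + 0.1) scale (SE 0.24, adjusted p = 0.00748, limma, with 23.7% of genes called higher). On whole reads recovered from the RPKM, between 44 and 261 per library of growing oocytes, it was 1.59 (adjusted p = 0.00165, edgeR, with 30.5% called higher), a test chosen after seeing the data.

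Spry2 and Dusp6 were close to the limit of detection. Spry2, a Sprouty relative of Spry4, lay between 0.0204 and 0.0639 RPKM in the 8 libraries of growing oocytes, on 5 to 21 reads each, and at 0.0169 in the GV column. Its log2 difference over growth on whole reads was -0.68 (adjusted p = 0.3004, edgeR). Dusp6, the phosphatase that acts on ERK in the cytoplasm, had 1 to 6 reads per library of growing oocytes, that is, 0.00231 to 0.0119 RPKM, and 23 reads (0.0415 RPKM) in the GV column. Of these 8 values 6 lay at or under 3 reads, so a difference of Dusp6 between size classes was not detectable at this depth.

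**Figure D2:**
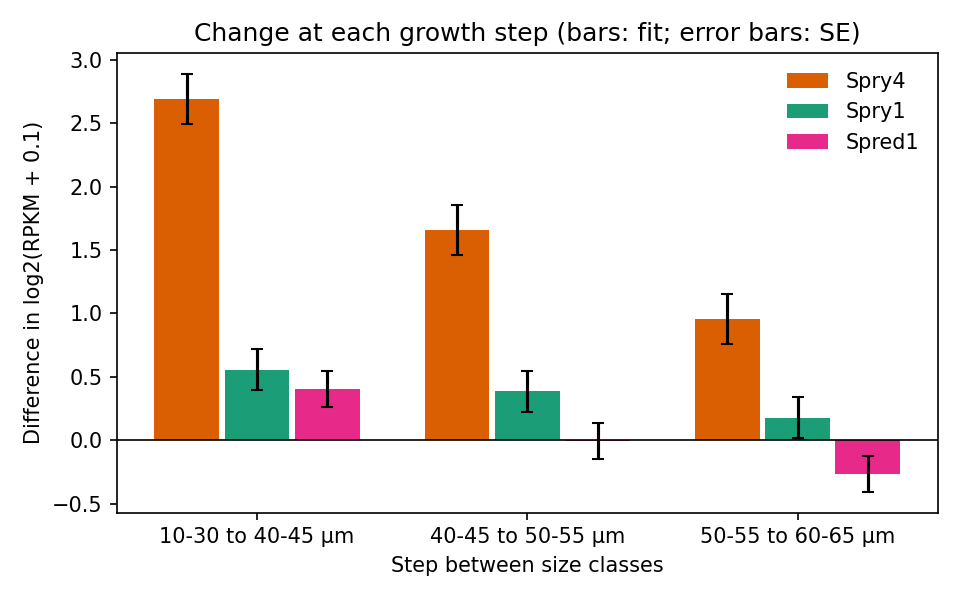
Differences in log2(RPKM + 0.1) between consecutive size classes (bars) with the SE of the limma fit for the 3 genes that passed the filter. Spry4 had 2.69, 1.66 and 0.95, Spry1 0.56, 0.39 and 0.18, and Spred1 0.40, -0.00 and -0.26, with no test for Spry4.

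From 60–65 μm to GV oocytes the genes were compared without a test, since GV had 1 column. The GV level was 1.66 times the 60–65 μm mean for Spry4, 1.00 for Spry1, 0.767 for Spred1 and 1.42 for Spred2. Spry2 and Dusp6, with ratios of 0.490 and 4.44, rested on few reads, 7 in GV against 7 and 14 for Spry2 and 23 in GV against 2 and 6 for Dusp6. The GV value lay outside the range of both 60–65 μm libraries for Spry4 and Spred2 (above) and for Spred1 (below), and within it for Spry1.

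Spry3 has no row in the table, and Spred3, the third SPRED gene, lay between 0.00888 and 0.0553 RPKM in growing oocytes. Among 26 other inhibitors of receptor, RAS or MAP kinase signalling in the table, 20 were tested, of which 10 rose and 5 fell between 10–30 and 60–65 μm, with a median log2 difference of 0.43 against 0.02 over all tested genes, where 32.4% rose and 30.9% fell. The 3 with the largest change were Dusp1, a nuclear phosphatase of MAP kinases (1.06 to 4.15 RPKM, log2 difference 1.94, SE 0.23), Il17rd, also known as Sef (2.47 to 9.14 RPKM, 1.87, SE 0.13), and Dusp10, a phosphatase of p38 and JNK (0.855 to 2.54 RPKM, 1.48, SE 0.12). Each rise was past the threshold (adjusted p = 0.000154, 1.34e-05 and 2.63e-05, limma).

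In the lists that follow, the counts are of genes called between 10–30 and 60–65 μm, where 32.4% of all tested genes rose and 30.9% fell. Of 23 listed ligands 7 were tested, and 4 rose and 1 fell. Largest were the changes of Egf (0.889 to 2.71 RPKM, log2 difference 1.52), Fgf8, which the oocyte secretes to its granulosa cells (11.6 to 32.1 RPKM, 1.48), and Pdgfb (2.29 to 4.99 RPKM, 1.12). Of 19 receptors 5 were tested. Fgfr2, a receptor of fibroblast growth factors, rose (0.318 to 2.101 RPKM, 2.40), and Insr, the insulin receptor, fell (0.961 to 0.180 RPKM, -1.88). Fgfr2 reached 0.5 RPKM only from 40–45 μm on, and Insr only at 10–30 μm and in 40–45B. Each thus entered the test through the classes where it was high. Kit had 24.9 and 38.0 RPKM at 10–30 μm and 27.7 in both libraries at 60–65 μm, with a log2 difference of -0.13 that did not pass (adjusted p = 0.621, limma).

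Among 28 tested genes of the cascade from adaptors to ERK, 9 rose and 7 fell, with a median difference of 0.11, both counts being at or under the shares of 32.4% and 30.9% over all tested genes. Mapk3, which encodes ERK1, rose from 10.6 and 11.4 RPKM at 10–30 μm to 29.5 and 28.5 at 60–65 μm (log2 difference 1.41, SE 0.09, adjusted p = 8.63e-06, limma). The RAS relative Rras and the kinase gene Braf fell, by 1.08 and 0.98 on the log2 scale, from 0.809 and 0.672 RPKM to 0.323 and 0.284. Braf reached 0.5 RPKM only in the libraries of 10–30 μm, and Rras only in these and in 40–45B (0.588). Both thus entered the test through the class where they were high.

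Of 9 tested target genes of ERK signalling outside the family, 5 rose and 2 fell, beside 32.4% and 30.9% of all tested genes, with Junb (0.290 to 1.14 RPKM, log2 difference 1.68), Ets2 (1.00 to 2.21 RPKM, 1.08) and Srf (4.83 to 8.55 RPKM, 0.85), all transcription factor genes, in front. Junb reached 0.5 RPKM only from 50–55 μm on, so it entered the test through the classes where it was high. Of 12 tested partners of Sprouty and SPRED proteins, 5 rose and 1 fell. Siah2, a ubiquitin ligase (21.0 to 49.8 RPKM, 1.27), and Cbl, another ubiquitin ligase that Sprouty proteins bind and that is also listed among the inhibitors (0.804 to 1.71 RPKM, 1.009), rose, and Ppp2cb, a catalytic subunit of protein phosphatase 2A, fell (4.95 to 2.08 RPKM, -1.19).

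By Euclidean distance between log2 profiles centred on the gene's own mean over 8 libraries, the genes nearest to Spry4 were Gm3677, C87977, Gm2309, Gm13089 and Oog4, at distances of 0.84 to 0.99. Oog4 is an oogenesin gene, and its family holds near-identical copies among which reads could have been split, so its level is uncertain. Its class means were 2.46, 11.7, 36.5 and 59.1 RPKM, and 74.8 in the GV column. Gm3677 and Gm2309 had nearly the same values, with 0.206 and 0.209 RPKM at 10–30 μm and 9.27 and 9.07 at 60–65 μm. Whether reads were shared among these other neighbours was not tested, so they may not count as separate genes. The genes nearest to Spry1 were Osbp2 and Brd1 (0.15 and 0.17), and those nearest to Spred1 were Pear1 and Entpd2 (0.15 and 0.20).

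Methylation was taken as the mean over positions with at least 5 calls, for gene starts over 1 kb on each side of the start and for gene bodies from 1 kb after the start to the end of the gene. On GRCm38 the genes are Spry1 at chromosome 3, 37639947 to 37644598, Spry2 at chromosome 14, 105891949 to 105896819, Spry4 at chromosome 18, 38586268 to 38601268, Spred1 at chromosome 2, 117121374 to 117182279, Spred2 at chromosome 11, 19924375 to 20024026, and Dusp6 at chromosome 10, 99263231 to 99267488. Spry2 and Spry4 lie on the minus strand and the others on the plus strand. Spry1, Spry2 and Dusp6 are short, with 4.65, 4.87 and 4.26 kb, whereas Spry4 spans 15.001 kb, Spred1 60.9 kb and Spred2 99.7 kb.

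The starts of all 6 genes were close to unmethylated in every library. In RRBS the 36 values, 1 per gene and library, lay between 0% and 2.06%, on 220 to 2807 calls each, and the highest was that of Spred2 in 50–55A. In PBAT the values were 1.59% for Spry4, 2.47% for Spry2, 4.04% for Spred2, 4.24% for Spry1, 4.87% for Spred1 and 4.93% for Dusp6, where the median over 19669 gene starts was 3.87%. No start of the 6 reached the minimum of 5% mean methylation for the test of gain. CpGs were dense there, between 55.5 and 103.9 per kb, compared with 6.44 to 29.6 per kb in the bodies.

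Gene bodies differed widely. In the body of Spry4 the mean methylation was 1.97% and 0.542% in libraries A and B at 40–45 μm, 22.4% and 20.7% at 50–55 μm, 45.6% and 48.8% at 60–65 μm, and 44.2% in PBAT. The 3 classes did not overlap, with means of 1.26% ± 1.011, 21.5% ± 1.14 and 47.2% ± 2.26 (SD, n = 2). Each RRBS value rested on 12 to 28 positions and 422 to 831 calls, and the PBAT value on 132 positions and 990 calls, of which 47.9% were methylated (95% Wilson interval 44.8% to 51.0%, for counting error only). On the methylated and unmethylated calls the gain was past the threshold from 40–45 to 50–55 μm (adjusted p = 0.000956, edgeR) and from 40–45 to 60–65 μm (adjusted p = 0.000115), and just missed it from 50–55 to 60–65 μm (adjusted p = 0.0578, and 0.0301 or 0.0298 without 40–45A or 40–45B). In these comparisons, in the order given, 76.5%, 83.9% and 37.3% of 4212 tested bodies gained. Only bodies averaging 5% or more entered this test, and a gain itself helps a body to reach that level. Over the 11 positions that all 6 RRBS libraries covered, a setting chosen after seeing the data, the values were 1.66% and 1.38%, then 12.2% and 13.5%, then 36.3% and 35.1%.

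In the body of Spred2 the mean methylation was 1.35% and 1.03% at 40–45 μm, 6.99% and 15.7% at 50–55 μm, 21.4% and 22.3% at 60–65 μm, and 29.8% in PBAT. No class overlapped another, but the 50–55 μm libraries stood 8.72 percentage points apart. Over the 64 positions covered in all 6 libraries the same pair had 7.22% and 6.74%, and the largest class 18.2% and 18.6%. The gain was past the threshold at the first step (adjusted p = 0.00176, edgeR) and over both together (6.53e-05), but the first step missed it with limma on percent methylation (adjusted p = 0.0629). The second step had an adjusted p of 0.0203 (edgeR) that rested on the libraries and on the filter, since it no longer passed without 60–65A or 60–65B (adjusted p = 0.129 and 0.204). Spred2 and Spry4 entered the test with a mean of at least 5% only through the larger oocytes. Without that minimum the first step passed for both (adjusted p = 0.0115 for Spred2 and 0.00670 for Spry4, edgeR), with 36.8% of 7971 bodies gaining. The second step then passed for neither (0.139 and 0.216), but edgeR called 0 of the 7971 bodies in it (0%, with 1921 at an unadjusted p under 0.05), so this says nothing particular to both genes. The gains from 40–45 to 60–65 μm then also passed (0.000636 for Spred2 and 0.000945 for Spry4), with 47.3% of bodies gaining.

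The body of Spry1 stayed low although the gene was expressed at every stage. Its RRBS values were 3.40% and 4.14%, then 0.786% and 5.93%, then 1.37% and 1.49%, and 9.42% in PBAT on 701 calls. The 50–55 μm libraries lay on either side of all the others, and both 40–45 μm libraries lay above both of 60–65 μm. Without the minimum, the change from 40–45 to 60–65 μm did not pass (adjusted p = 0.993, edgeR). Among 880 genes of at least 1 RPKM and up to 6 kb in length, 30.5% had a body under 10% in PBAT, with a median of 22.3%, whereas among 1547 such genes of 10 to 20 kb, the length class of Spry4, 3.68% were under 10% and the median was 47.8%.

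Spry2 and Dusp6, both near the limit of detection in RNA, had bodies of at most 2.05% and 3.05% in the RRBS libraries with 5 or more positions. In PBAT they had 2.29% on 438 calls and 9.04% on 70 calls. The median over 8677 genes under 0.1 RPKM was 8.14%. Without the minimum, Spry2 had an adjusted p of 0.830 (edgeR) from 40–45 to 60–65 μm, and Dusp6 had too few positions in 50–55B for a test.

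Spred1 could not be followed over time, because RRBS covered at most 1 position in its body, which holds 6.44 CpGs per kb. In PBAT its body had 55.8% over 44 positions and 318 calls (54.4% of calls, 95% Wilson interval 48.9% to 59.8%). Its place beside Spry4 turned with the read minimum, since with at least 10 reads Spred1 had 45.8% over 7 positions and Spry4 56.1% over 23. The median over 2250 genes of at least 1 RPKM and over 50 kb was 51.1%. Spred2, with 29.8%, had 0.1 to 1 RPKM, and the median over 1055 genes of that range and length was 33.6%.

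**Figure D3:**
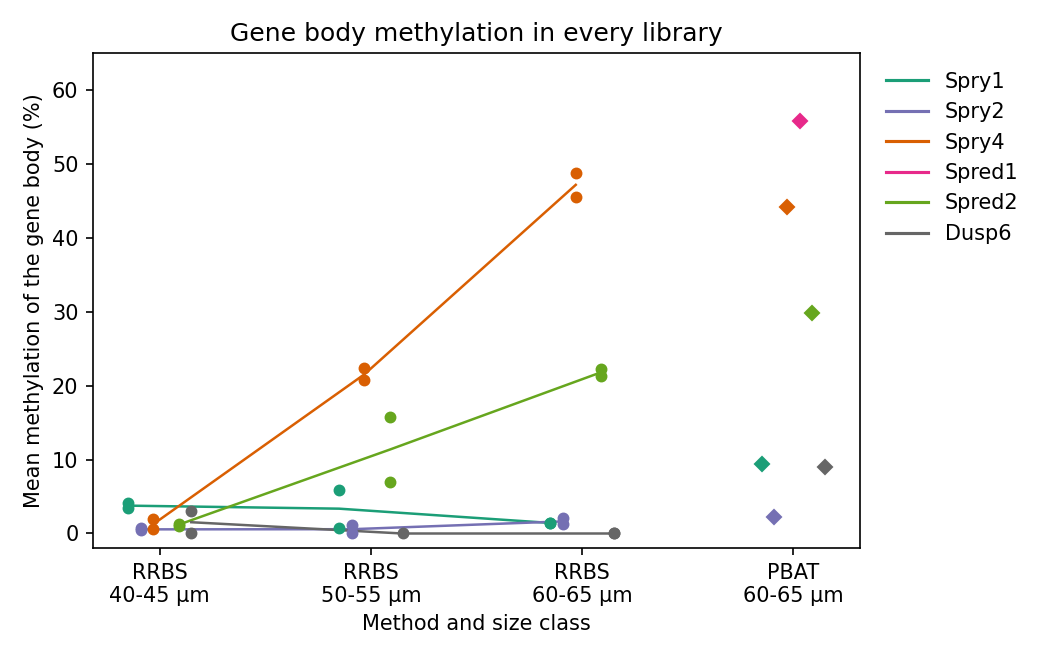
Mean methylation of the gene body in each RRBS library (circles, with lines through class means) and in the single PBAT library (diamonds), for regions with at least 5 positions of 5 or more calls. Spry4 and Spred2 go from under 2% at 40–45 μm to 45.6% and 48.8%, and 21.4% and 22.3%, at 60–65 μm, while Spry1, Spry2 and Dusp6 stay under 10% in both methods.

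Methylation was not spread evenly within the bodies. Bins and boundaries were chosen with the values in view, so the following is a description. Spry4 has 1 annotated intron, which runs to 10.5 kb after the start, and a last exon that holds the whole coding sequence. From 1 to 9 kb after the start PBAT gave 3.43% over 37 positions, and from 9 to 13 kb 60.2% over 94 positions. In 1-kb bins with at least 5 positions the values were 48.2% at 9 to 10 kb, 59.4% at 10 to 11 kb, 65.9% at 11 to 12 kb and 47.2% at 12 to 13 kb, and beyond the end of the gene 5.71% at 16 to 17 kb and 13.8% at 17 to 18 kb. Nearer to the start such bins had 1.43% at 1 to 2 kb, 2.86% at 4 to 5 kb and 10.9% at 6 to 7 kb. CpGs were sparser in the first stretch, with 11.9 per kb against 22.2 per kb. From 9 to 13 kb RRBS gave 1.84% and 0.607% in the 40–45 μm libraries, 25.04% and 27.7% in the 50–55 μm libraries, and 51.7% and 55.4% in those of 60–65 μm. The 3 RRBS positions nearer to the start, at 3 to 4 kb, had at most 2.90% in every library, so the gain that RRBS measured for Spry4 lay at 10 to 12 kb, where its other positions were.

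Spred2 was patchy in PBAT. Bins of 5 kb lay between 3.71% and 20.5% up to 25 kb after the start and at 51.3% and 57.0% from 25 to 35 kb. They lay at 6.83% from 35 to 40 kb, at 37.2% and 33.9% from 40 to 50 kb and at 6.92% from 55 to 60 kb. From 70 kb to the end, where all but the first of the coding exons of its main transcripts lie, they lay between 42.8% and 57.6%. The annotated start of a shorter transcript of Spred2 is at 30.2 kb, inside the first methylated stretch. Exonic positions of the Spred2 body had 50.4% and intronic ones 26.6%. Apart from the first exon of the shorter transcript, the exons of the body lie from 73745 bp on, within the last methylated stretch. Exon and position along the gene therefore cannot be told apart here. In Spry1, bins reached 14.4% at 2 to 3 kb and 12.2% at 3 to 4 kb, and in Spred1 the first 5 kb had 7.89% and the stretch from 55 to 60 kb 57.7%, with 71.4% at 10 to 15 kb and 30.3% at 35 to 40 kb on 5 and 3 positions.

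**Figure D4:**
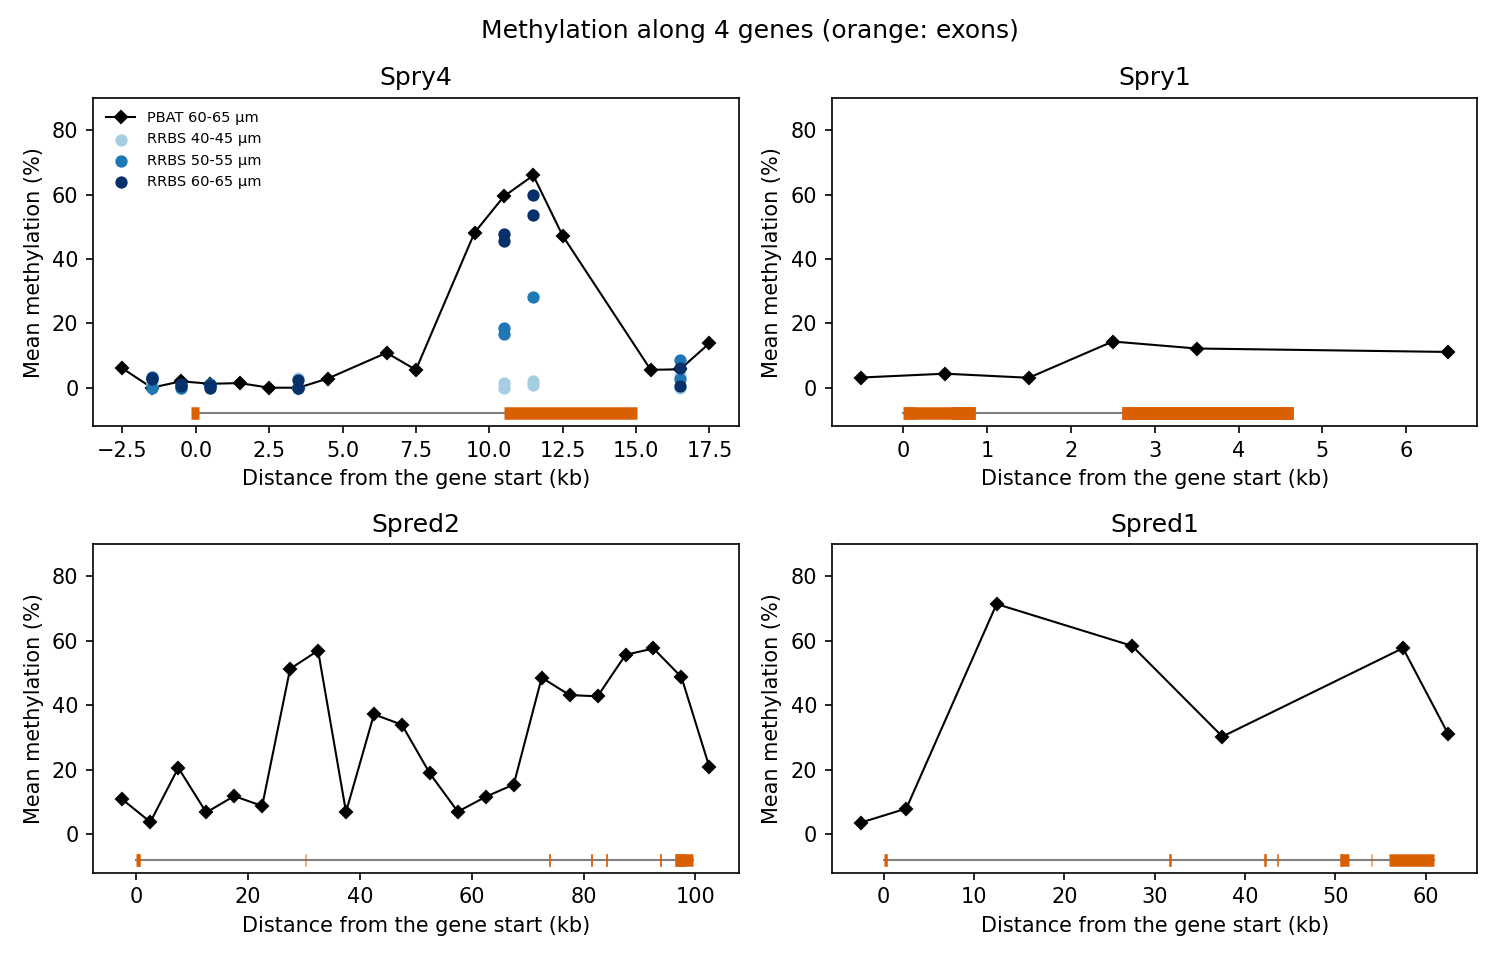
Mean methylation in bins of 1 kb (Spry4, Spry1) and 5 kb (Spred2, Spred1) against distance from the gene start, for bins of at least 3 positions, with black diamonds for PBAT, blue circles for single RRBS libraries and orange bars for exons. Spry4 has at most 10.9% from its start to 9 kb and reaches 65.9% in its last exon, Spry1 stays under 15%, and Spred2 alternates between methylated and unmethylated stretches.

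Set side by side at 60–65 μm, the genes with expression above 1 RPKM had PBAT body methylation of 44.2% (Spry4, 17.5 RPKM), 9.42% (Spry1, 8.60 RPKM) and 55.8% (Spred1, 3.89 RPKM). The order of expression was thus not the order of body methylation among them. Spry4 and Spred2 had both more RNA and more body methylation in each larger class from 40–45 μm on. Spry1 also had more RNA, and RRBS body means of 3.77%, 3.36% and 1.43% in the 3 classes. The order of these Spry1 means turned with the choice of positions, to 2.95%, 2.99% and 6.49% with positions of at least 1 read, and they were 2.51%, 3.49% and 2.34% over pooled calls. With 6 genes, 3 size classes and different positions per gene, no relation between both measures was tested.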

How the data were processed

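Values of 16 samples were analysed. For RNA-seq the authors trimmed reads with Trim Galore 0.2.8, aligned them to GRCm38 with TopHat2 2.0.9 and deposited RPKM per gene. The study's methods name Cufflinks for the expression of transcripts and SeqMonk among the programs for RNA-seq data. Which of them made these RPKM is not stated. For methylation they used Trim Galore 0.3.5 and Bismark (0.14.0 for RRBS, 0.10.0 for PBAT) and deposited, per cytosine, the percent methylated and the counts of methylated and unmethylated calls, strands apart. Removal of duplicates is stated for PBAT only, and intervals cover counting error only. RRBS libraries held 30000113 to 57319823 calls and PBAT 99039028.

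RPKM were scaled by trimmed means (factors 0.932 to 1.07) and tested in R 4.3.3 with limma 3.58.1 (trend) on log2(RPKM + 0.1), which understates the change of low genes, for 10518 genes of at least 0.5 RPKM in 2 of 8 libraries, 4 classes in 1 fit, with Benjamini-Hochberg adjustment at 0.05. Printed RPKM are unscaled. Whole reads were recovered for 99.8% of 20278 genes with values above 0 (within 0.02 reads) and tested with edgeR 4.0.16. Calls of regions with at least 5 positions in all 6 RRBS libraries and a mean of at least 5% went into a quasi-likelihood fit in edgeR. On simulated data the limma step (10 to 30 against 60 to 65 μm, 10518 genes) called 85 of 100 genes changed by 1 on the log2 scale, 97 of 100 changed by 2 and 11 unchanged ones. The edgeR step (40 to 45 against 60 to 65 μm, 4212 bodies) called 187 of 200 bodies raised by 30 points and 11 others.

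Genes named from each list are the 3 with the largest change over growth among those past the threshold, plus Mapk3, Kit, Spry3 and Spred3 (a further gene of this rule is not reported here), 5 nearest genes for Spry4 and 2 for each other tested gene. The genes and all lists were chosen with earlier results of these data known. Annotation was GENCODE M21. Python 3.11.15 with numpy, scipy, pandas and matplotlib was used for tables and figures.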

Additional observations from a re-analysis of the deposited data

How the results depend on the processing

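Scaling, filters, pseudocount, positions and libraries were each changed in turn. The rise of Spry4 over growth, 5.30 on the log2 scale, became 3.74 with a pseudocount of 1, 5.64 with 0.01, 5.62 with edgeR on whole reads and 5.03 to 5.57 without 1 library. The difference from 60–65 μm to GV for Spry4 was 0.77 and 0.56 to 0.98 without 1 library. The number of genes called was 2519 for the first step, 1169 in a fit of the 2 classes alone and 1029 to 2892 without 1 library. For the second step it was 967, 549 with no filter and 0 to 1630 without 1 library, with 0 reached without 40–45B and without 50–55A. For the third step limma called 0 genes (1485 at an unadjusted p under 0.05, and 0 by edgeR on whole reads), 8 with a pseudocount of 1 and 0 without any 1 library.

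The deviations of same-lettered RNA libraries correlated at 0.59 to 0.67 among the 3 smaller classes but at -0.23 to 0.11 between these and 60–65 μm, and those of RRBS at -0.00370 to 0.00173. Since not every pair went together and no label gives the letters a meaning, they were not taken as pairs. A fit with a replicate block called 1924 genes in the second and 228 in the third step, brought Spry1 past the threshold in the second step (adjusted p = 0.0436, limma) and Spred1 in the first (0.0301), and changed no call for the bodies of Spry4 and Spred2.

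Body methylation of Spry4 at 40–45 μm, 1.26%, was 5.87% with positions of at least 1 read and 0.542% to 1.97% from single libraries. At 50–55 μm, 21.5% became 28.7% with at least 1 read, 18.8% with at least 10, 12.9% over shared positions, and 20.7% to 22.4% from single libraries. At 60–65 μm, 47.2% became 42.5% over pooled calls, 35.7% over shared positions, and 45.6% to 48.8% from single libraries. PBAT gave 30.8% with at least 1 read, 56.1% with at least 10 and 47.9% over pooled calls. From 50–55 to 60–65 μm the body of Spry4 passed with limma on percent (adjusted p = 0.00481), and without 40–45A (0.0301) or 40–45B (0.0298), whereas Spred2 no longer passed with positions of at least 1 read (0.0952), with no minimum (0.139) or with limma on percent (0.0563). Spred2 also missed the threshold in the first step with limma on percent (0.0629).

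Bodies called were 3222 in the first RRBS step (2067 with limma on percent, 2857 to 3314 without 1 library) and 1573 in the second (0 with at least 1 read, 0 with no minimum, 0 to 2179 without 1 library). Gene starts called were 101 in the first step (9 with no minimum, 49 with limma on percent, 65 to 111 without 1 library), 0 in the second by edgeR (91 at an unadjusted p under 0.05; 143 with limma on percent, 16 with 500 bp on each side, 0 to 61 without 1 library) and 170 over both (71 with no minimum, 89 to 183 without 1 library). For these changes the cause was not tested. For Spry1, the call of the first step was also lost with no filter (adjusted p = 0.0729, limma) and in a fit of the 2 classes alone (0.0972).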
